A study of Mus musculus with 5 samples.

Results

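The genes described here encode the subunits, activators and assembly factors of the proteasome, measured by RNA-seq in the embryonic mouse cortex with and without Uhrf1. They were taken by name, as all genes whose symbol starts with Psma, Psmb, Psmc, Psmd, Psme, Psmf or Psmg followed by a digit, without the 3 immunoproteasome subunits Psmb8, Psmb9 and Psmb10. This gave 47 of the 23997 gene names in the table. They comprise 14 subunits of the 20S core (7 of the alpha ring and 7 of the beta ring), 9 of the base and 8 of the lid of the regulatory particle, 5 activators or regulators (Psme1 to Psme4 and Psmf1), 7 assembly factors (Psmg1 to Psmg4, Psmd5, Psmd9 and Psmd10), and the tissue-restricted core subunits Psma8 and Psmb11. The rule also picked up Psme2b, a copy of Psme2 elsewhere in the genome, and Psmc3ip, which is named after its binding to a proteasome ATPase but is a factor of meiotic recombination and no subunit.

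The libraries came from whole cortices dissected from C57BL/6 embryos at embryonic day 16 (E16). The 2 cKO libraries (MG18 and MG19) are from Emx1Cre/+ Uhrf1-/- embryos and the 3 control libraries (MG15, MG16 and MG17) from Emx1Cre/+ Uhrf1+/- embryos, so that the controls carry the Cre as well and lack Uhrf1 on 1 allele. Uhrf1 is the factor that brings the maintenance DNA methyltransferase to replicated DNA. Emx1-driven Cre acts in the dorsal telencephalon, so that interneurons, vessels, microglia and meninges in the same dissection keep Uhrf1. The question is whether the proteasome genes differed between cKO and control cortices, and whether the parts of the complex did so to the same extent.

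The proteasome degrades proteins that carry chains of ubiquitin. Its 20S core is a barrel of stacked rings, with proteolytic sites inside the beta rings and a gate formed by the alpha rings. The regulatory particle sits on the barrel's end: the lid takes off the ubiquitin chain, and the ATPase ring of the base unfolds the protein and feeds it through the gate. The genes of the complex are known to be transcribed together, under the transcription factor Nfe2l1 when proteasome activity is short, and dividing progenitors and neurons alike depend on the complex.

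Values are FPKM, fragments scaled to the length of the transcript and the size of the library, as the authors deposited them. Fold changes are the difference, cKO minus control, of log2(FPKM + 0.1), with standard errors and p-values from 1 limma fit over 14698 genes. The 46 members averaging 0.1 FPKM or more entered that fit, and Psmb11 did not. Depth, estimated from the steps between low values, was about 8500000 and 10000000 fragments in the cKO libraries, against about 44000000, 16000000 and 11000000 in the control libraries. These estimates are rough, and for MG15 a much lower depth accounts for the values nearly as well. Across genes, any 2 libraries correlated with a Pearson coefficient of 0.953 to 0.983.

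The deleted gene, Uhrf1, stood at 2.75 and 2.61 FPKM in MG18 and MG19 (cKO), against 7.24, 13.2 and 13.0 FPKM in MG15, MG16 and MG17 (control) (log2 fold change -1.97, SE 0.28, limma adjusted p = 0.00775). Without MG18 the log2 fold change was -2.00 (limma adjusted p = 0.258), and without MG19 -1.93 (limma adjusted p = 0.266). Cell type markers also differed between the groups. Of 9 markers of cortical progenitors 8 were lower in cKO, with a summed level of 1132 to 1377 FPKM in cKO and 1467 to 2094 FPKM in control libraries. Most of this sum was Fabp7, at 729 to 899 FPKM in cKO and 923 to 1479 FPKM in control libraries. Vim came next, at 241 to 302 FPKM in cKO and 268 to 384 FPKM in control libraries. All 10 markers of the ventral telencephalon were higher in cKO, at 81.9 to 102 FPKM in sum, against 62.3 to 66.3 FPKM in control libraries. Microglial markers summed to 36.2 to 42.4 FPKM in cKO and 18.0 to 32.7 FPKM in control libraries, with 5 of 6 higher in cKO. Meningeal markers summed to 9.17 to 11.7 FPKM in cKO and 3.71 to 5.09 FPKM in control libraries, with 6 of 6 higher. Different genes carried the meningeal sum in the cKO libraries. Dcn was at 6.90 FPKM in MG18 and 0.997 FPKM in MG19. Col1a1 and Col1a2 were at 0.663 and 0.627 FPKM in MG18, and at 3.19 and 2.67 FPKM in MG19. Of the 6 meningeal markers, 2 were higher without overlap, where 14.5% of all genes were. Markers of neurons, vessels and red blood cells had median log2 fold changes of -0.05, 0.18 and -0.47. Neuron markers, 5 of 8 lower in cKO, summed to 3027 to 3302 FPKM in cKO and 3322 to 3782 FPKM in control libraries. Red blood cell markers summed to 450.2 to 509 FPKM in cKO and 596 to 922 FPKM in control libraries. For vessels the sums were 121 to 125 FPKM in cKO and 107 to 147 FPKM in control libraries. No marker was listed at exactly 0, but 2 red blood cell markers were nearly so in some libraries. Hba-a1 was at 4.45e-05 FPKM in MG17 (log2 fold change 4.55), and Hba-a2 at 0.00833 and 0.00914 FPKM in MG18 and MG19 (-4.75). These 2 genes went in opposite directions, with Hba-a1 highest in MG18 (34.5 FPKM) and Hba-a2 highest in MG15 (93.5 FPKM). By the rough depth estimates, 1 fragment per kilobase is worth 0.0927 FPKM in MG17, 0.1178 FPKM in MG18 and 0.0994 FPKM in MG19. Both fold changes are therefore uncertain. The part of the markers in the differences of proteasome genes was not tested. In whole tissue, fewer cells of a type and less RNA per cell cannot be told apart.

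The promoters of the proteasome genes are shown before their values, to set the letters at the start of each gene beside its level. The shares of motifs are a description and were not tested. RefSeq (GRCm38.p6) gave 42 promoters, from 250 bases before to 50 bases after the start, for 39 of the 47 genes. A search on both strands for 10 short motifs found CCGGAAG, the core bound by ETS factors, in 16 of the 42 promoters (38.1%), against 8.86% of all 32851 promoters. It stood in the promoters of 9 of 14 base and lid genes and of 1 of 11 core genes. The core of the antioxidant response element that Nfe2l1 and its relatives bind, TGACNNNGC, stood in 6 of the 42 promoters (14.3%) and in 12.4% of all promoters. CpG dinucleotides, where Uhrf1 acts, numbered 19 per promoter in the median of the members, against 7 in all promoters. Of the other motifs, AAGATGG (YY1) was in 19% of the members' promoters and 6.34% of all, GGGCGG (GC box) in 54.8% and 35.7%, and TGANNNNGC, which contains the stricter antioxidant core, in 57.1% and 41.3%. CCAAT was in 33.3% of the members' promoters and 37.4% of all, TATAAA in 7.14% and 13.6%, CACGTG in 7.14% and 7.15%, TGACTCA in 2.38% and 5.2%, and TGACGTCA in 0% and 1.79%. The 100 bases before the start are printed for 3 genes with an ETS match that had an unadjusted p under 0.05, an assembly factor, a lid subunit and a base ATPase, and for the catalytic subunit Psmb5, which holds an antioxidant core. Each is given 5′ to 3′ on the strand of its gene, and capitals mark either motif, on either strand.
Psmg1, chr16:95990961-95991060, minus strand: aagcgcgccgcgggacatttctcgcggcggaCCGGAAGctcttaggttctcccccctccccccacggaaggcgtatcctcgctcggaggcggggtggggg
Psmd6, chr14:14120946-14121045, minus strand: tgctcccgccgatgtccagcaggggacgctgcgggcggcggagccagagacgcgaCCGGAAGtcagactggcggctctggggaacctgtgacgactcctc
Psmc1, chr12:100110102-100110201, plus strand: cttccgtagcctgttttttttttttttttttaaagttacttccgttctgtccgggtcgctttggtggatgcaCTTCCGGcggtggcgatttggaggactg
Psmb5, chr14:54617996-54618095, minus strand: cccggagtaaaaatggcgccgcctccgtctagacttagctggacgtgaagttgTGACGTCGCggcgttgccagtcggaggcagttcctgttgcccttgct
The ETS match lies 69 bases before the start of Psmg1, 45 before that of Psmd6 and 28 before that of Psmc1, and the antioxidant core 47 bases before that of Psmb5. Subunits with and without a match differed little in their fold change. The 10 subunits of the 26S proteasome (core, base and lid) with CCGGAAG had a median log2 fold change of -0.30 (from -0.46 to 0.06), and the 15 without it -0.34 (from -0.49 to -0.19). The 4 subunits with TGACNNNGC had a median of -0.41 and the 21 without it -0.32. A match describes the letters of the window and not binding.

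As a whole, the proteasome genes were measured at lower levels in the cKO cortex by a small amount. The summed level of the 31 subunits of the 26S proteasome was 3185 and 3206 FPKM in MG18 and MG19 (cKO), against 4055, 3591 and 4513 FPKM in MG15, MG16 and MG17 (control), a cKO mean of 78.8% of control. Both cKO libraries lay below every control library in this sum. Of the 31 subunits, 30 had a log2 fold change below 0, all but the lid subunit Psmd11. The median was -0.32, with quartiles of -0.42 and -0.21. Over all genes tested the median was -0.02, and over the 6975 genes averaging 10 FPKM or more, to which the subunits are closer in level, it was -0.08, with quartiles of -0.23 and 0.09. Those 6975 genes are not matched to the subunits in level, with a median of 25.4 FPKM against 117 FPKM. The median standard error of a subunit was 0.18.

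Single genes passed the test in few cases. With an unadjusted p under 0.05 in limma, 7 of the 46 members tested were lower in cKO (Psmg1, Psmb7, Psmc3, Psmd6, Psmb6, Psmc1 and Psma4), where 5.17% of all genes tested and 6.22% of those averaging 10 FPKM or more were called lower. Among genes of that level with transcripts of 1000 to 2000 bases, closer to the subunits in length, the share was 11.5%. In the other direction 1 member, Psma8, was called, where the share of all genes was 6.37%. Psma8 was also the only one past the study's second threshold of over 2-fold, which 2.88% of all genes passed upward and 1.16% downward, with 0 members lower. After adjustment over all genes tested, 0 members were called in either direction, against 1.1% of all genes higher and 0.163% lower. In 24 members, 21 of them 26S subunits, both cKO values lay below all 3 control values. This held for 16.3% of all genes, 22.2% of those averaging 10 FPKM or more, and 31.3% of those of that level with 1000 to 2000 bases. In the opposite direction the groups did not overlap for 1 member, Psma8, and for 14.5% of all genes. At any size, 41 of the 46 members were lower in cKO, against 52.2% of all genes and 63.2% of those averaging 10 FPKM or more. Among genes of that level with 1000 to 2000 bases, 76.1% were lower.

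**Figure D1:**
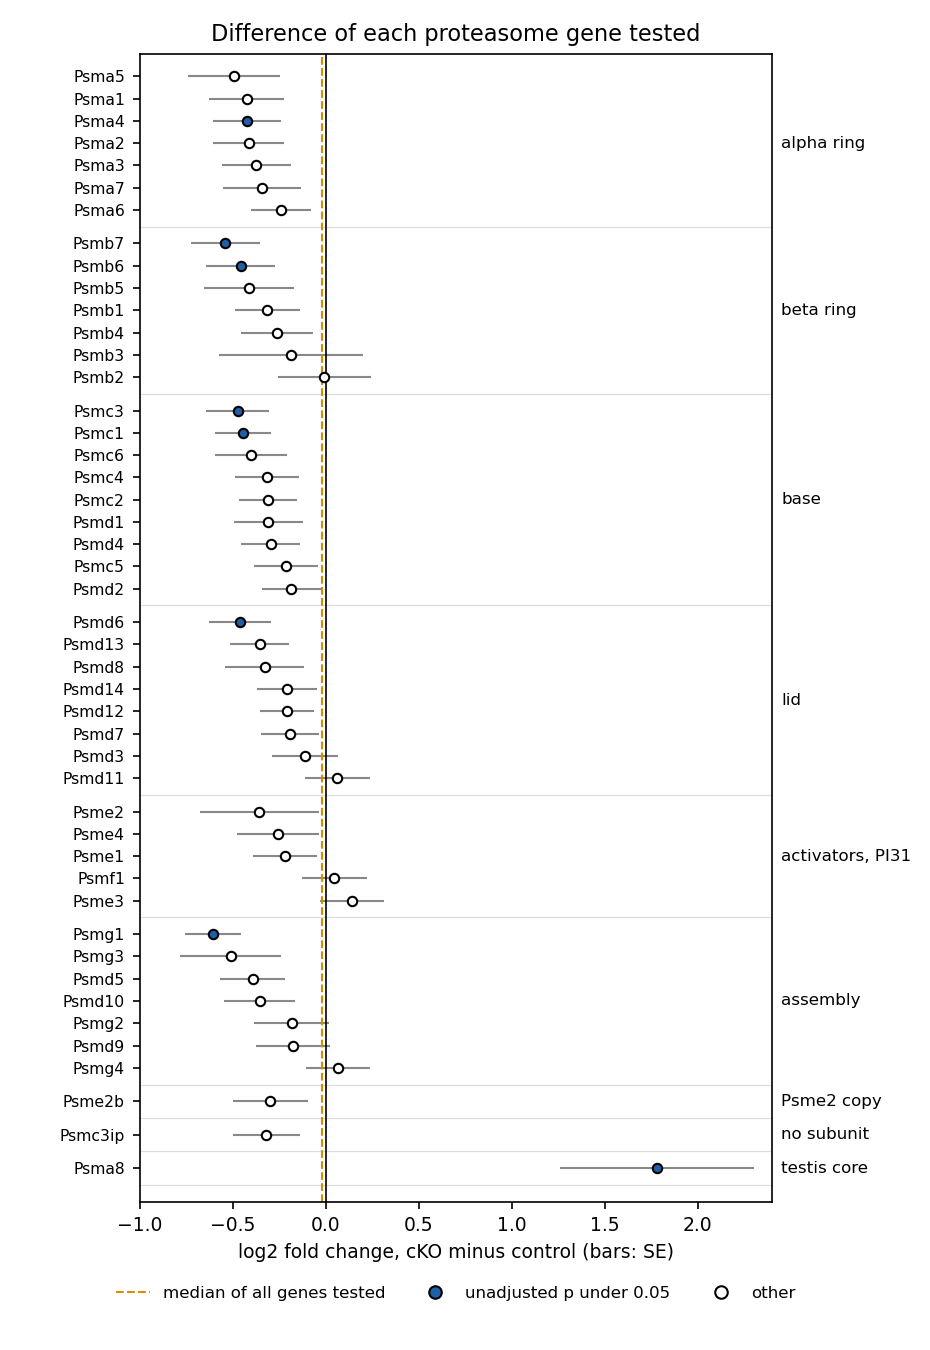
Log2 fold change, cKO minus control, of the 46 proteasome genes tested (x axis; bars are standard errors from limma), grouped by the part of the complex (y axis). Filled points had an unadjusted p under 0.05, and the dashed line is the median of all genes tested (-0.02); 41 of the 46 points lie left of 0.

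The count of calls depended on single libraries. It was 1 without MG19, where 3.35% of all genes were called lower, and 4 without MG18, where 4.38% were. It was 2 without the control library MG15 (3.7% of all genes), 17 without the control library MG16 (5%) and 8 without the control library MG17 (5.96%). Members called with a library left out were not all among those named above. Without MG15, MG18 or MG19 the calls of Psmc1, Psmc3 and Psmd6 were lost, although the fold changes moved little. In these 3 fits they were between -0.46 and -0.42 for Psmc1, between -0.48 and -0.43 for Psmc3 and between -0.52 and -0.40 for Psmd6. The calls of Psmb6 and Psma4 were lost in the same fits and without MG17. That of Psma4 was also lost with no filter on low values, with either other scaling, after length correction, without a trend in eBayes and with a covariate for Y-linked transcripts. That of Psmb6 was lost with quantile normalization, after length correction and without a trend, and that of Psmd6 with quantile normalization. MG16 was the control nearest to the cKO libraries. The 26S subunits deviated from the control mean by a median of -0.32 in MG18 and -0.32 in MG19, against 0.03 in MG15, -0.16 in MG16 and 0.13 in MG17, on the log2 scale. MG17 was the highest library for 22 of the 31 subunits. A cKO library was the lowest for 27 of them, 17 times MG18 and 10 times MG19.

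**Figure D2:**
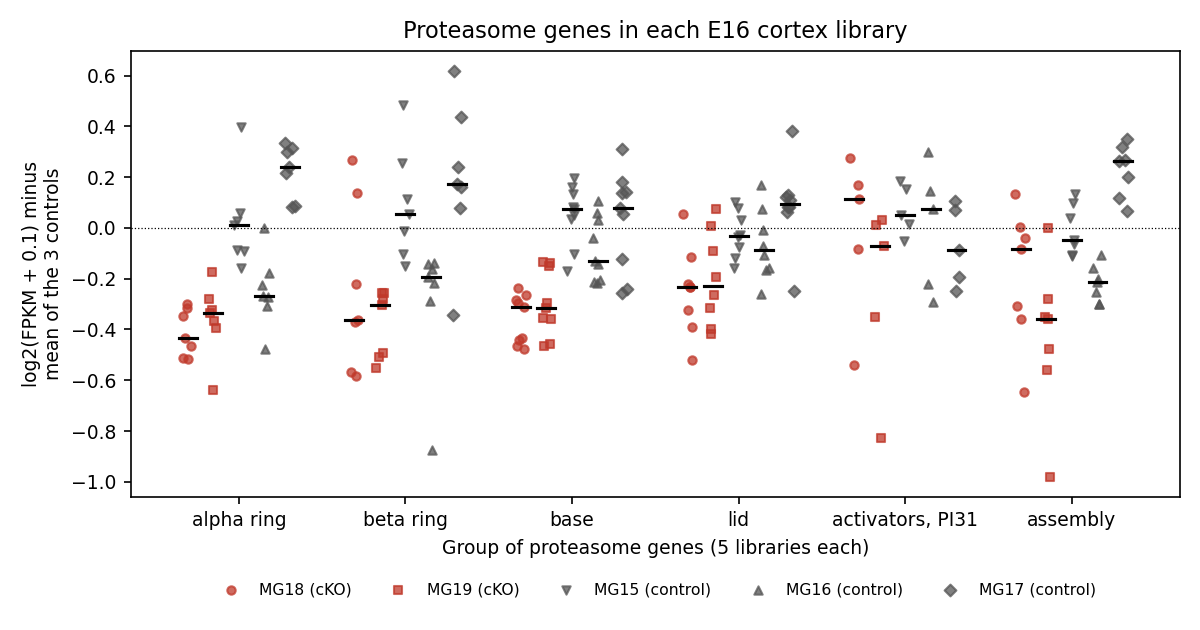
Deviation of log2(FPKM + 0.1) from the mean of the 3 controls (y axis) for each gene, by part of the complex (x axis) and library, with the cKO libraries MG18 and MG19 in red, left of the control libraries MG15, MG16 and MG17 in grey. Horizontal bars are medians; for the base they are -0.31 in MG18 and -0.32 in MG19, against 0.07, -0.13 and 0.08 in the controls.

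The libraries also differed in Y-linked transcripts, which MG18, MG15 and MG17 held and MG19 and MG16 did not hold above 1 FPKM of Ddx3y. Among the libraries with them, MG18 set against MG15 and MG17 gave a median log2 fold change of -0.44 over the 26S subunits, with 29 of 31 lower. In the pair without them, MG19 set against MG16, the median was -0.16, with 28 of 31 lower. For the core the 2 values were -0.51 and -0.11, for the base -0.42 and -0.21, and for the lid -0.29 and -0.16. Over the 6975 genes averaging 10 FPKM or more the medians were -0.09 and -0.06. These values rest on 1 cKO library each and were not tested.

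The 20S core, which holds the proteolytic sites, summed to 1846 and 1818 FPKM in the cKO libraries, against 2338, 2019.8 and 2679 FPKM in the control libraries, 78.1% of the control mean. All 14 of its subunits had a log2 fold change below 0, although Psmb2, at -0.01, turned above 0 with quantile normalization (0.12) and with a correction for transcript length (0.19), and the median was -0.39 (-0.25 without the control library MG17). For 10 of the 14 both cKO values lay below all controls. This held for 16.3% of all genes, 22.2% of those averaging 10 FPKM or more, and 31.3% of those of that level with 1000 to 2000 bases. At an unadjusted p under 0.05 in limma 3 were lower, where 5.17% of all genes were.

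Psmb7, the catalytic subunit that cleaves after basic residues, had the lowest fold change of the core. It was at 179 and 191 FPKM in MG18 and MG19 (cKO), against 251, 244 and 317 FPKM in MG15, MG16 and MG17 (control) (log2 fold change -0.54, SE 0.19, limma adjusted p = 0.313). The groups did not overlap, and the unadjusted p was above 0.05 without either cKO library. The gene overlaps its neighbour Nek6. Psmb6, which cleaves after acidic residues, was at 190.2 and 167 FPKM in the cKO libraries, against 254, 210.4 and 274 FPKM in the control libraries (-0.46, SE 0.19, limma adjusted p = 0.397). Here MG19 was the lowest and MG16 the nearest control. Psmb5, which cleaves after hydrophobic residues and is the main target of proteasome inhibitors, was at 41.6 and 51.7 FPKM in the cKO libraries, against 86.4, 55.9 and 48.7 FPKM in the control libraries (-0.41, SE 0.24, limma adjusted p = 0.544). Its groups overlapped, since MG17 lay below MG19, and the log2 fold change was -0.17 without MG15, -0.26 without MG18 and -0.22 after length correction.

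Psma4, a subunit of the alpha ring, was at 67.7 and 77.4 FPKM in the cKO libraries, against 101, 80.2 and 112 FPKM in the control libraries (-0.42, SE 0.18, limma adjusted p = 0.423). The groups were narrowly apart, MG19 lying just below MG16. The other 6 alpha subunits had log2 fold changes between -0.49 (Psma5) and -0.24 (Psma6), and the alpha ring as a whole a median of -0.41. Psmb2, a beta subunit without proteolytic activity, did not follow the rest of the core. It was at 145 and 98.9 FPKM in the cKO libraries, against 108, 98.5 and 163 FPKM in the control libraries (-0.01, SE 0.25, limma adjusted p = 0.993), with both groups spread over the same range. The remaining non-catalytic beta subunits Psmb1, Psmb3 and Psmb4 had log2 fold changes of -0.31, -0.19 and -0.26. Among the 26S subunits that the rule selected, Psmb4 was the highest, with a mean over the 5 libraries of 403 FPKM, 45.0 times that of the lowest, Psmd11.

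Of the base, the rule selected the 6 ATPases Psmc1 to Psmc6, the scaffold subunits Psmd1 and Psmd2 and the ubiquitin receptor Psmd4. They summed to 742 and 771 FPKM in the cKO libraries, against 984, 882 and 1011 FPKM in the control libraries, 78.9% of the control mean. All 9 genes had a log2 fold change below 0, with a median of -0.31. For 7 of them both cKO values lay below all controls. The same was true of 16.3% of all genes, 22.2% of those averaging 10 FPKM or more, and 31.3% of those of that level with 1000 to 2000 bases. Psmc3 was at 104 and 105 FPKM in the cKO libraries, against 152, 125 and 159.5 FPKM in the control libraries (-0.47, SE 0.17, limma adjusted p = 0.335). Psmc1 was at 45.8 and 45.1 FPKM in the cKO libraries, against 64.2, 56.6 and 65.4 FPKM in the control libraries (-0.45, SE 0.15, limma adjusted p = 0.299). For both ATPases the cKO values lay close together and below all controls. Psmc3 overlaps its neighbour Slc39a13, and 45.8% of the Psmc1 transcript is also found in another gene. The smallest difference among the 9 base genes that the rule selected was that of Psmd2, the scaffold to which ubiquitin-like proteins dock. It was at 80.0 and 86.0 FPKM in the cKO libraries, against 105, 91.7 and 86.7 FPKM in the control libraries (-0.19, SE 0.16, limma adjusted p = 0.670), with the groups just apart.

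The lid had the smallest median difference of the parts of the 26S proteasome, although the parts were not tested against each other. Its 8 genes summed to 596 and 617 FPKM in the cKO libraries, against 734, 689 and 824 FPKM in the control libraries, 81.0% of the control mean, with a median log2 fold change of -0.21. Of the 8, 4 were lower without overlap between the groups. So were 16.3% of all genes, 22.2% of those averaging 10 FPKM or more, and 31.3% of those of that level with 1000 to 2000 bases. Psmd6, a structural subunit, was at 119 and 129.7 FPKM in the cKO libraries, against 175, 153 and 186 FPKM in the control libraries (-0.46, SE 0.17, limma adjusted p = 0.339), with a clear gap between the groups. Psmd11, a structural subunit at the other end of the order, was at 9.11 and 9.24 FPKM in the cKO libraries, against 8.62, 8.15 and 9.62 FPKM in the control libraries (0.06, SE 0.18, limma adjusted p = 0.908), and both cKO values lay inside the control range. Psmd14, the enzyme that removes the ubiquitin chain, was at 112 and 131 FPKM in the cKO libraries, against 136, 133 and 151 FPKM in the control libraries (-0.21, SE 0.16, limma adjusted p = 0.646). Its groups were narrowly apart.

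The proportions of the parts within a library were similar in both groups. The summed level of base and lid over that of the core was 0.725 and 0.764 in the cKO libraries, against 0.735, 0.778 and 0.685 in the control libraries, and the groups overlapped. The beta ring over the alpha ring gave 1.56 and 1.40 in the cKO libraries, against 1.54, 1.46 and 1.37 in the control libraries. The lid over the base gave 0.804 and 0.800 in the cKO libraries, against 0.746, 0.782 and 0.815 in the control libraries. None of these ratios separated the groups.

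The activators, alternative caps of the core, overlapped between the groups. Their sum was 114 and 107 FPKM in the cKO libraries, against 124, 121 and 112 FPKM in the control libraries, 93.0% of the control mean, and the groups overlapped for all 5 genes. The median log2 fold change was -0.22, but it was 0.12 without MG19, -0.07 without MG18, -0.14 without the control library MG15 and -0.10 without the control library MG16. Psme1, which with Psme2 forms the interferon-inducible cap, was at 44.4 and 36.8 FPKM in the cKO libraries, against 52.3, 40.3 and 49.4 FPKM in the control libraries (-0.22, SE 0.17, limma adjusted p = 0.649). Psme2 was at 3.05 and 1.54 FPKM in the cKO libraries, against 3.20, 2.28 and 3.02 FPKM in the control libraries (-0.36, SE 0.32, limma adjusted p = 0.687). Its level is uncertain. Of its transcript 82.5% is also found in Psme2b, which was at 41.3 and 26.8 FPKM in the cKO libraries, against 41.5, 37.2 and 44.2 FPKM in the control libraries, and reads of the 2 genes that map to both were removed. Of the Psme2b transcript 94.9% is found in Psme2, so that the level of Psme2b is uncertain too.

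Psme3, the nuclear cap, had the highest fold change of this group. It was at 35.1 and 29.2 FPKM in the cKO libraries, against 29.96, 32.04 and 25.3 FPKM in the control libraries (0.14, SE 0.17, limma adjusted p = 0.769), with the groups interleaved. Psme4, a large cap known for the degradation of acetylated histones, was at 19.5 and 29.1 FPKM in the cKO libraries, against 27.5, 35.1 and 23.9 FPKM in the control libraries (-0.25, SE 0.22, limma adjusted p = 0.675). Its cKO values lay on either side of MG15. Psmf1, a core-binding protein known as an inhibitor in vitro, was at 12 and 10.1 FPKM in the cKO libraries, against 10.8, 11.2 and 10.02 FPKM in the control libraries (0.05, SE 0.17, limma adjusted p = 0.932).

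The assembly factors, chaperones that leave the complex once it is built, held the member with the smallest p among the genes lower in cKO. Psmg1, which pairs with Psmg2 to guide the alpha ring, was at 20.1 and 21.3 FPKM in the cKO libraries, against 32.4, 29.3 and 33.0 FPKM in the control libraries (-0.60, SE 0.15, limma adjusted p = 0.138). The groups were clearly apart, and the unadjusted p stayed under 0.05 without each of the 5 libraries in turn, with fold changes between -0.66 and -0.56. Its partner Psmg2 had a log2 fold change of -0.18 (limma adjusted p = 0.753). Of the second alpha ring pair, Psmg3 had -0.51 (overlapping groups, limma adjusted p = 0.505), whereas Psmg4 was at 66.6 and 60.8 FPKM in the cKO libraries, against 66.7, 51.0 and 66.0 FPKM in the control libraries (0.07, SE 0.17, limma adjusted p = 0.900). The 3 chaperones of the ATPase ring, Psmd5, Psmd10 and Psmd9, had log2 fold changes of -0.39, -0.35 and -0.18. Over the 7 assembly factors the median was -0.35, and -0.08 without MG19 and -0.19 without the control library MG17.

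**Figure D3:**
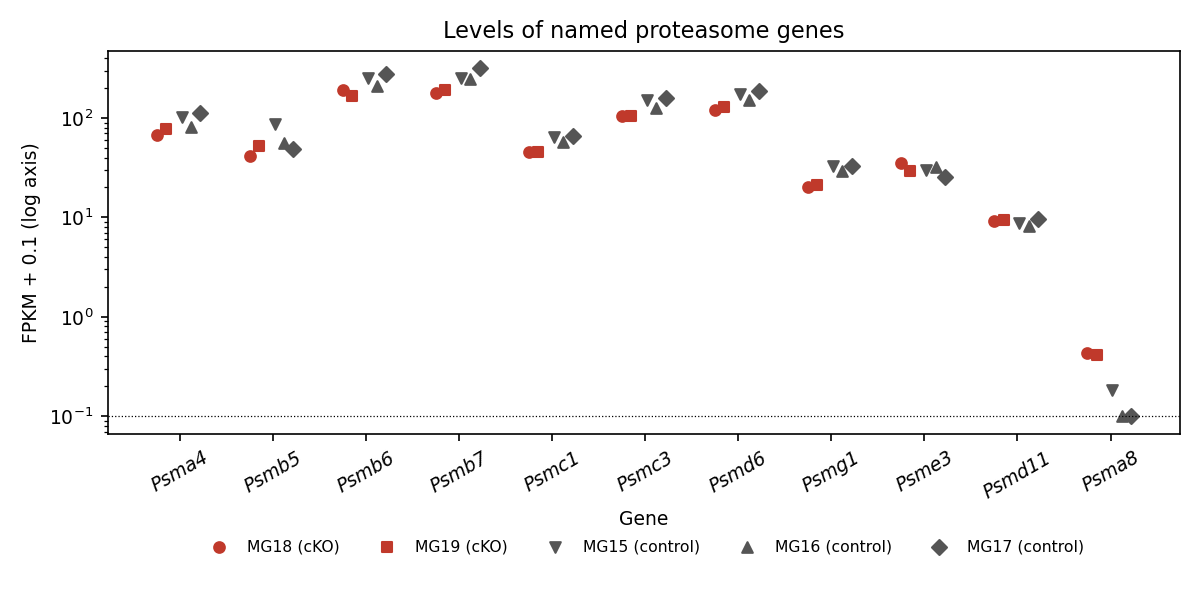
FPKM + 0.1 (y axis, log scale) of 11 proteasome genes (x axis) in each library, with the cKO libraries MG18 and MG19 in red, left of the control libraries MG15, MG16 and MG17 in grey. Psmg1, Psmc1, Psmc3, Psmd6, Psmb6, Psmb7 and Psma4 lie lower in cKO without overlap, Psmb5, Psme3 and Psmd11 overlap, and Psma8 lies near the floor of the plot at 0.1.

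The 2 tissue-restricted core subunits were at or near 0. Psma8, an alpha subunit of the testis, was at 0.327 and 0.316 FPKM in MG18 and MG19 (cKO), against 0.0837 FPKM in MG15 and 0 in MG16 and MG17 (log2 fold change 1.78, SE 0.52, limma adjusted p = 0.226). With the rough depth estimates the cKO values correspond to about 4.8 fragments in MG18 and 5.4 in MG19. The estimate for MG18 fitted about as loosely as that for MG15, whose depth is too uncertain to give a number. Psma8 reached the mean of 0.1 FPKM through its cKO values alone, so that its place among the genes tested depended on the difference. It was not in the fit without MG18, and with a pseudocount of 1 it was under 2-fold. Psmb11, the beta subunit of the thymic cortex, was at 0.0294 FPKM in MG18, about 1.0 fragment by the same rough estimate, and at 0 in MG19 and the 3 controls. Psmc3ip, the recombination factor, was at 20.3 and 15.8 FPKM in the cKO libraries, against 22.4, 19.9 and 24.99 FPKM in the control libraries (-0.32, SE 0.18, limma adjusted p = 0.530).

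Levels among the subunits also went with sequence shared with copies elsewhere in the genome, and the authors had removed reads that mapped to several places. Of the 26S subunits, 6 (Psma3, Psma5, Psmb3, Psmb5, Psmc1 and Psmd11) share between 23.4% and 88.4% of their transcript with other genes. They had mean levels of 8.95 to 56.9 FPKM, with a median of 24.8, against 41.0 to 403 FPKM and a median of 129.0 for the 25 that share none. These 6 levels are therefore uncertain. The difference between cKO and control was as large without them. The 25 subunits without shared sequence had a median log2 fold change of -0.31, all 25 were lower in cKO and 19 without overlap, whereas the 6 had a median of -0.39, 5 lower and 2 without overlap. Among all genes averaging 10 FPKM or more, 63.2% were lower and 22.2% lower without overlap. For those with 1000 to 2000 bases the shares were 76.1% and 31.3%.

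**Figure D4:**
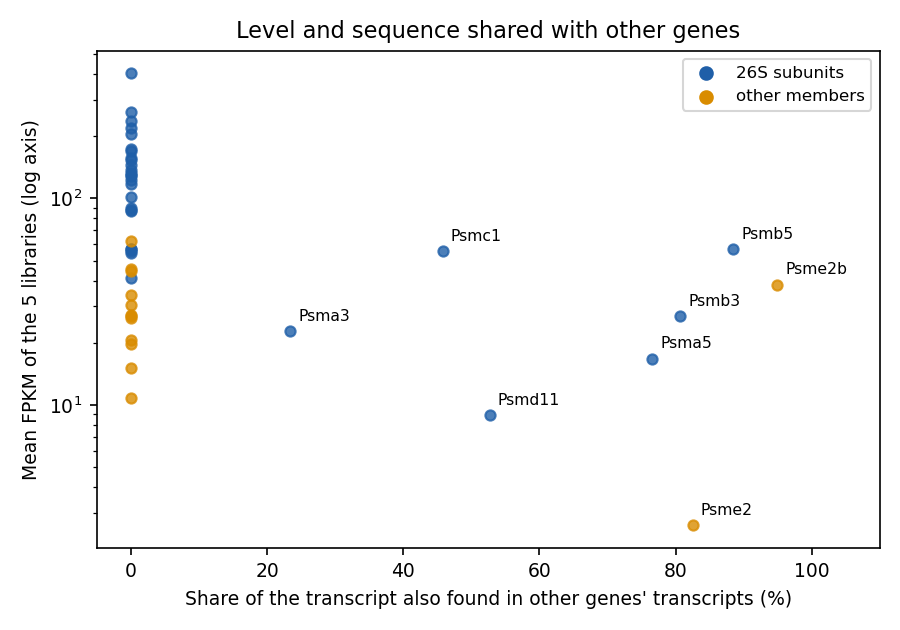
Mean FPKM over the 5 libraries (y axis, log scale) against the share of the transcript that is also found in other genes' transcripts (x axis, %) for 45 proteasome genes. Of the 26S subunits (blue), the 6 that share sequence lie between 8.95 and 56.9 FPKM, and the 25 at 0% between 41.0 and 403 FPKM; Psme2 is the lowest point.

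Transcript length moved with the difference too, and its part in it was not tested beyond the correction given here. Shorter transcripts tended to be lower in cKO across the whole table, with a median log2 fold change of -0.18 for transcripts under 1000 bases, -0.13 from 1000 to 2000 bases, -0.05 from 2000 to 4000 bases and 0.06 above. The 26S subunits have a median length of 1819 bases, against 3377 bases for all genes tested. Among the 1159 genes of 1000 to 2000 bases averaging 10 FPKM or more, the median log2 fold change was -0.19, 76.1% were lower in cKO, 31.3% were lower without overlap and 11.5% were lower at an unadjusted p under 0.05. After correction of each library for its trend with length, the median of the 26S subunits was -0.23 (core -0.24, base -0.27, lid -0.10). That of all genes was 0 and that of genes averaging 10 FPKM or more -0.06. It left 5 members lower at an unadjusted p under 0.05 in limma (4.67% of all genes) and 17 lower without overlap (14.9%). Quantile normalization gave a 26S median of -0.19 (base -0.21, lid -0.10), against -0.02 for genes averaging 10 FPKM or more. With it 4 members were lower at an unadjusted p under 0.05, where 5.54% of all genes were, and 13 lower without overlap, where 16% of all genes were.

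**Figure D5:**
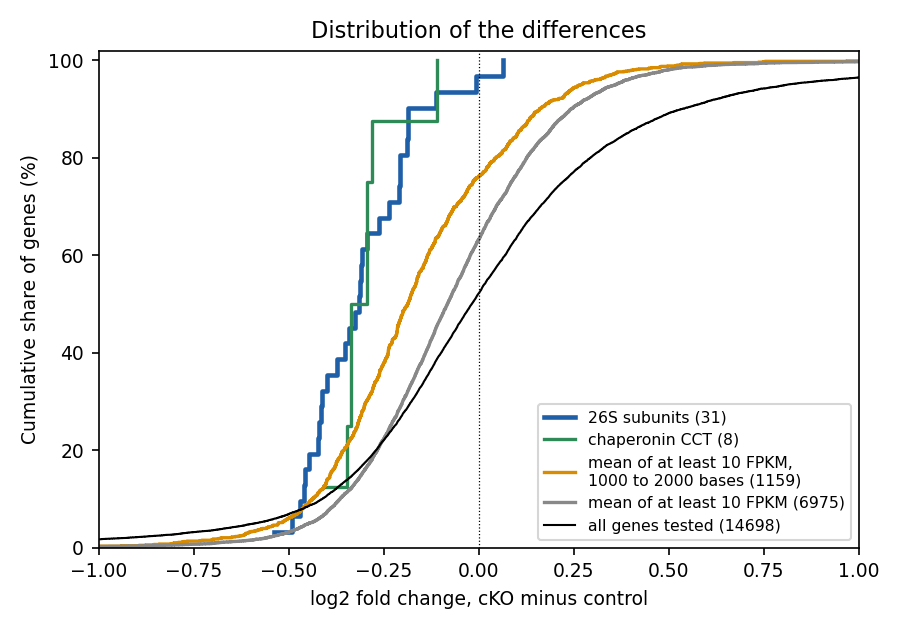
Cumulative share of genes (y axis, %) by log2 fold change, cKO minus control (x axis), for the 31 subunits of the 26S proteasome, the 8 subunits of the chaperonin CCT, the 1159 genes of 1000 to 2000 bases averaging 10 FPKM or more, all 6975 genes of that level, and all 14698 genes tested. The curves of the 26S subunits and of CCT lie left of the others over most of the range, with medians of -0.32 for both, against -0.19, -0.08 and -0.02.

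Fold changes of the same size were seen outside the genes that the rule selected. The 8 subunits of the chaperonin CCT, another abundant barrel of cytoplasmic proteins, which folds actin and tubulin, had a median log2 fold change of -0.32. All 8 were lower in cKO and 7 lower without overlap, where 63.2% and 22.2% of genes averaging 10 FPKM or more were. For genes of that level with 1000 to 2000 bases the shares were 76.1% and 31.3%. An unadjusted p under 0.05 in limma was reached by 0 of the 8 CCT subunits. Cct5 was at 279 and 291 FPKM in the cKO libraries, against 347, 339.7 and 405 FPKM in the control libraries (-0.35, SE 0.18, limma adjusted p = 0.5). Tcp1 was at 256 and 253 FPKM in the cKO libraries, against 292, 283 and 357 FPKM in the control libraries (-0.28, SE 0.18, limma adjusted p = 0.584). A list of 14 proteins that work on or with the proteasome held the maturation factor Pomp, the receptor Adrm1, the deubiquitinases Usp14 and Uchl5 and the transcription factors Nfe2l1 and Nfe2l2, among others. Since it also held the lid subunit Shfm1 and Adrm1, a ubiquitin receptor of the base, not all of it lies outside the complex. Adrm1 was at 3.79 and 3.63 FPKM in the cKO libraries, against 3.21, 4.13 and 4.56 FPKM in the control libraries (-0.08, SE 0.23, limma adjusted p = 0.915). Of the 14, 11 were lower in cKO, where 52.2% of all genes and 63.2% of those averaging 10 FPKM or more were. Without overlap 4 were lower, where 16.3% of all genes and 22.2% of those averaging 10 FPKM or more were. In either direction 0 were called, and the median was -0.13. Pomp, which is needed to join the half-barrels of the core, was at 182 and 138 FPKM in the cKO libraries, against 204, 184 and 278 FPKM in the control libraries (-0.46, SE 0.22, limma adjusted p = 0.462). Shfm1, the smallest lid subunit and the most abundant of this list, was at 305 and 294 FPKM in the cKO libraries, against 354, 314 and 440 FPKM in the control libraries (-0.29, SE 0.20, limma adjusted p = 0.606). Nfe2l1, the activator of proteasome genes, was at 27.0 and 21.5 FPKM in the cKO libraries, against 21.6, 22.8 and 16.7 FPKM in the control libraries (0.25, SE 0.19, limma adjusted p = 0.632). Its groups overlapped.

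Genes that supply ubiquitin and deliver substrates went both ways, with a median of 0.01 over 14 genes. At an unadjusted p under 0.05 in limma, 3 were lower (5.17% of all genes) and 1 was higher (6.37% of all genes). Ubb, a polyubiquitin gene, was at 298 and 414 FPKM in the cKO libraries, against 605, 819.5 and 619 FPKM in the control libraries (-0.94, SE 0.24, limma adjusted p = 0.145). The groups were far apart, although the gene consists of near-identical repeats, so that its level from uniquely mapped reads is uncertain. Rad23b, a shuttle that carries ubiquitinated proteins to the proteasome, was at 76.4 and 73.7 FPKM in the cKO libraries, against 97.5, 91.4 and 104 FPKM in the control libraries (-0.38, SE 0.15, limma adjusted p = 0.390). Nsfl1c, a cofactor of the segregase Vcp, was at 26.5 and 24.2 FPKM in the cKO libraries, against 36.3, 32.6 and 31.0 FPKM in the control libraries (-0.39, SE 0.15, limma adjusted p = 0.385). Ubqln2, a shuttle of another family, was at 19.4 and 15.6 FPKM in the cKO libraries, against 10.1, 12.3 and 14.8 FPKM in the control libraries (0.50, SE 0.21, limma adjusted p = 0.402). The 3 shuttle and cofactor genes had groups that did not overlap, with Ubqln2 in the opposite direction.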

How the data were processed

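RNA from whole E16 cortices of 2 cKO and 3 control embryos, which the paper calls biological replicates, was depleted of ribosomal RNA and sequenced as strand-specific pairs of 100 bases. The authors mapped reads to mm10 with TopHat2, removed duplicates, poorly aligned reads, improper pairs and reads mapping to several places, and deposited FPKM values per gene from Cuffdiff. No versions of these tools are named in the sources used here, and the table holds no counts, so no test for counts was used and depth was estimated from 1531 genes, with 65.3 to 82.4% of low values near whole fragments (within 0.25, where chance gives 50%). Counting intervals are therefore not given.

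From the deposited FPKM, log2(FPKM + 0.1) was fitted with limma 3.58.1 (eBayes with a trend, 6.23 prior degrees of freedom) over 14698 genes averaging 0.1 FPKM or more, cKO against control, with no covariate. The 57 small RNAs (of 1225 named) that reached this level were excluded. Adjusted p-values are Benjamini and Hochberg's over all genes tested. The fit was also run on simulated data, drawn as normal values with the means and variances that the fit to the real data gave. Such data could not show problems particular to FPKM values or to depth. The members, the gene lists, the rule for named genes and the motifs were chosen with earlier results of these data known. Genes named with their values were members with an unadjusted p under 0.05, the highest and lowest fold change of each part, the catalytic and tissue-restricted subunits, all activators, Psmc3ip, members under 1 FPKM in a library, and the called or most abundant genes of each other list. Psmd14, Nfe2l1 and genes given by fold change alone were added after their values were seen. Shared sequence was measured with BLAST+ 2.17.0 (at least 97% identity over 100 bases) between GENCODE vM21 transcripts, which also gave transcript lengths. Alternatives were the pseudocount, the filter, the scaling, a correction for length (loess, span 0.3), eBayes without a trend and each library left out. A covariate for Y-linked transcripts was added after seeing the data. R 4.3.3, Python 3.11.15, pandas 2.3.3, numpy 2.4.6 and matplotlib 3.10.9 were used. 1 gene of the list for ubiquitin supply is not reported here and was left out of its counts. Other stages, sorted cells and methylation data are not analysed here.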

Additional observations from a re-analysis of the deposited data

How the results depend on the processing

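The groups held 2 and 3 libraries, and depth is known only as a rough estimate. No member passed the adjusted threshold under any alternative, where between 36 and 201 of all genes did. The medians of the core, base, lid and 26S subunits stayed below 0 under all 14 alternatives, and those of all members too. Quantile normalization moved the base to -0.21, the lid to -0.10 and the 26S subunits to -0.19, with 4 members lower at an unadjusted p under 0.05 (5.54% of all genes) and 13 lower without overlap (16% of all genes), and turned Psmb2 to 0.12. Length correction moved the lid to -0.10 and turned Psmb2 to 0.19. The covariate for Y-linked transcripts turned Psmb2 to 0.07 and gave 6 members lower at an unadjusted p under 0.05 (4.86% of all genes). The member higher and over 2-fold, Psma8, was lost with a pseudocount of 1 (0 members over 2-fold) and with a mean of at least 1 FPKM (0 higher, 0 over 2-fold), where it was not tested. Leaving out each library in turn gave 1 to 17 members lower at an unadjusted p under 0.05 (3.35 to 5.96% of all genes), 0 to 1 higher and 0 to 1 higher over 2-fold, medians of -0.18 to 0.12 for the activators and -0.46 to -0.08 for the assembly factors, and log2 fold changes of -0.28 to 0.27 for Psmb2, -0.58 to -0.17 for Psmb5, -0.06 to 0.13 for Psmg4, -0.54 to 0.03 for Psme4, -0.07 to 0.17 for Psmf1, -0.83 to 0.12 for Psme2 and -2.25 to -1.82 for Uhrf1. The cause of these shifts was not tested. No paired analysis was possible because the labels give no replicate numbers that pair samples.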

Other observations

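The inducible catalytic subunits, which replace their constitutive counterparts in immune cells and under interferon, stood far below them in every library. Psmb10 was at 7.38 and 4.23 FPKM in the cKO libraries, against 7.19, 5.54 and 8.86 FPKM in the control libraries (log2 fold change -0.33, SE 0.29, limma adjusted p = 0.670). Psmb8 was at 0.432 and 0.376 FPKM in the cKO libraries, against 0.254, 0.2501 and 0.09604 FPKM in the control libraries (0.80, SE 0.45, limma adjusted p = 0.528). Both cKO values of Psmb8 lay above all controls, and the groups of Psmb10 overlapped. Psmb9 was listed at 0 in MG18, MG15 and MG16 and was at 0.156 FPKM in MG19 and 0.322 FPKM in MG17, and was not tested. The listed FPKM of Psme2b stood above that of Psme2 by a similar factor in both groups, 13.6 and 17.4 in the cKO libraries, against 12.9, 16.4 and 14.6 in the control libraries. Since 94.9% of the Psme2b transcript is also found in Psme2, these values do not show which of the 2 genes the reads came from.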
